A study of Mus musculus with 18 samples.

Results

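Fatty acid oxidation and ketogenesis are described here through 33 genes, taken by name from a table of 54532 genes and all found in it. They encode the enzymes and carriers that activate fatty acids, move them into mitochondria or peroxisomes, shorten them, and turn the product into ketone bodies. The transcripts were measured in mouse liver cells from animals whose bile duct had been tied off (BDL), which stops the flow of bile, and from sham-operated animals (Sham). Hepatocytes (MPH, in primary preparation), epithelial cells of the bile ducts (BECs) and Kupffer-like cells, labelled after the macrophages that live in the liver, were isolated. All of the 6 groups (BDL and Sham of each cell type) had 3 libraries of polyadenylated RNA, 18 in all. Hepatic stellate cells, which the design also names, were not analysed here. The sources used here do not give the strain, age or sex of the mice, the time after ligation, or whether each library came from a mouse of its own. A p-value therefore measures the spread between these libraries, and fewer cells of a type cannot be told apart from less RNA per cell.

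Fatty acids are first joined to coenzyme A. Long chains enter mitochondria as carnitine esters, and each turn of the beta-oxidation spiral then dehydrogenates, hydrates, dehydrogenates again and cleaves the chain, releasing acetyl-CoA. Very long chains are shortened in peroxisomes. Hepatocytes are the main site of ketone body synthesis, and much of this programme is under the nuclear receptor PPARA, which is active in fasting. Values are FPKM (fragments per kilobase of transcript after scaling for library size), and a gene was called when limma on log2(FPKM + 1) gave a Benjamini-Hochberg adjusted p under 0.05 over all genes tested.

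The libraries held 15455403 to 20583320 recovered reads in genes. The deposited values were not scaled to an equal sum: columns added up to 510913 to 834579 in MPH, against 267916 to 399850 in BECs and Kupffer libraries. The summed level of 15 hepatocyte markers was 55685 to 109211 FPKM in MPH BDL libraries and 51444 to 125013 in MPH Sham libraries. It was 234.9 to 745.9 in BECs BDL, 1747 to 4176 in BECs Sham, 1559 to 3809 in Kupffer BDL and 671.6 to 1406 in Kupffer Sham libraries, so hepatocyte transcripts were present in every preparation. Kupffer cell markers (12 genes) were at 2317 to 6730 FPKM in MPH BDL and 2465 to 10204 in MPH Sham libraries. No marker of the hepatocyte, biliary or Kupffer cell lists was at 0 in all 3 libraries of any group. The libraries MPH BDL 3 and Kupffer BDL 3 stand apart from their groups, as their values below show.

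In Sham cells the members were mostly hepatocyte transcripts. Of 32 members tested (all but Acot3), 30 were higher in MPH than in both BECs and Kupffer-like cells, against 21.4% of all 14466 genes. The median log2 difference was 2.21 against BECs and 2.82 against Kupffer-like cells, beside 0.01 and -0.05 over all genes. The exceptions were Pdk4, which encodes a kinase that shuts off pyruvate dehydrogenase, and Acot2, a mitochondrial acyl-CoA thioesterase. Pdk4 averaged 13.96 ± 3.68 FPKM in MPH Sham libraries, 17.2 ± 2.69 in BECs Sham libraries and 14.5 ± 4.21 in Kupffer Sham libraries (SD, n = 3 each). For Acot2 the Sham means were 8.04 ± 2.72 FPKM in MPH, 7.20 ± 1.04 for BECs and 5.40 ± 0.61 for Kupffer-like cells. The scaling of the table bears on these levels: scaled to a common sum, the median of all genes moved to -0.83 and that of the members to 1.14 against BECs, and 25 members passed, 24 of them among the 30.

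Ehhadh, Acaa2 and Acaa1b had the highest levels in Sham hepatocytes. Ehhadh, the peroxisomal bifunctional enzyme, averaged 983 ± 279 FPKM, Acaa2, the mitochondrial thiolase that cleaves off acetyl-CoA, 886 ± 247, and Acaa1b, a peroxisomal thiolase, 709 ± 96.9 (SD, n = 3 each). The spreads of these 3 overlap, so their order is not settled. The next was Etfa, a subunit of the flavoprotein that takes electrons from the acyl-CoA dehydrogenases, at 181 ± 33.5, close to Hsd17b4, the second peroxisomal bifunctional enzyme, at 179.9 ± 49.4. The lowest was Acot3, a peroxisomal thioesterase, with 4.48, 7.19 and 0.81 FPKM in the MPH Sham libraries.

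**Figure D1:**
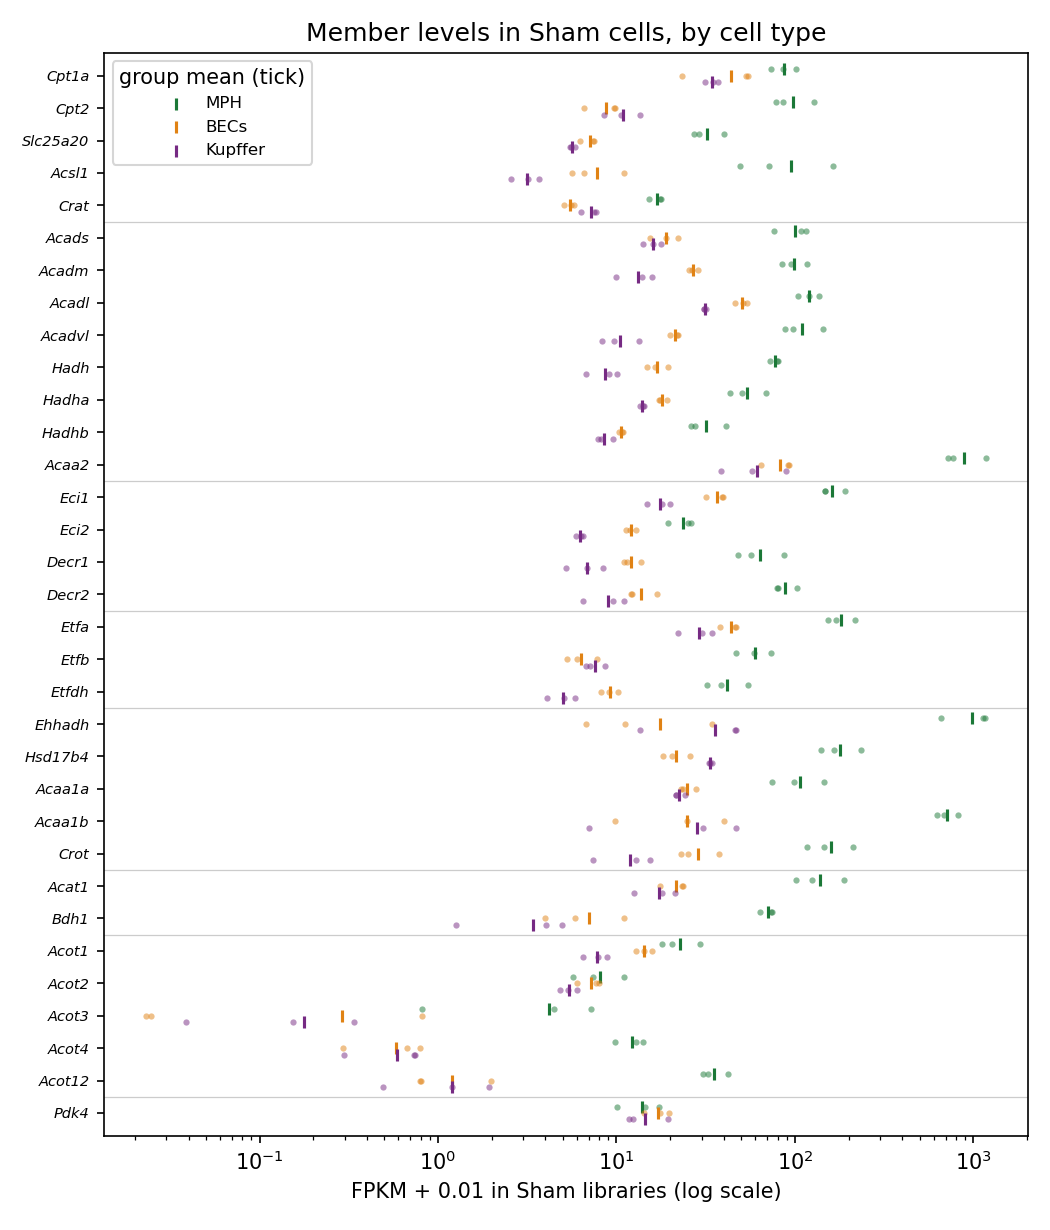
FPKM (log scale, 0.01 added) of the 33 members in the 9 Sham libraries, with dots for libraries and ticks for group means, ordered by role with the carnitine shuttle at the top. Green MPH values lie to the right for nearly all members, while Pdk4 and Acot2 overlap between the cell types.

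Outside MPH the members kept a larger share of their MPH level than hepatocyte markers did. In Sham BECs the median member stood at 19.5% of its MPH mean, while the median hepatocyte marker stood at 3.65%. In Sham Kupffer-like cells these figures were 12.5% and 1.06%. All such shares use the deposited values, whose column sums were larger in MPH. In both cell types 9 members exceeded the highest share of any hepatocyte marker (28.2% in BECs and 22.9% in Kupffer-like cells), and all 9 were shared: Acadl, Acot1, Acot2, Cpt1a, Crat, Eci2, Hadha, Hadhb and Pdk4. Ehhadh was the lowest in BECs, at 1.78%, and Acsl1, which activates long-chain fatty acids, the lowest in Kupffer-like cells, at 3.32%. Between the other cell types, 10 members were higher in Sham BECs than in Sham Kupffer-like cells, against 23.9% of all genes, and 1 was lower, Hsd17b4, against 20.0% of all genes.

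In hepatocytes 2 of 33 members fell after ligation, the ketone gene Bdh1 and the thiolase gene Acaa1b, and none rose, while 0.860% of all 12323 genes tested were called lower. The log2 change was negative for 26 members and positive for 7, with a median of -0.65 beside -0.06 over all genes. That median was -0.41 without MPH BDL 2 and -0.36 with quantile normalization. An unadjusted p under 0.05 was reached by 13 members, beside 22.6% of all genes. The BDL and Sham libraries did not overlap, with BDL lower, for 13 members, beside 18.4% of all genes, and for no member was every BDL library higher than every Sham library. The hepatocyte marker sums of the 2 groups overlap, and the median change of the 15 hepatocyte markers was -0.10. Of the other marker lists, 2 of 5 monocyte markers tested and 1 of 7 biliary markers tested rose in MPH, and no Kupffer cell marker was called.

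Bdh1 (chromosome 16, 31422280 to 31458901, plus strand, GRCm38) encodes the mitochondrial dehydrogenase that interconverts acetoacetate and hydroxybutyrate, the last step of ketone body synthesis. It stood at 10.2, 6.53 and 8.65 FPKM in the MPH BDL libraries, against 63.8, 73.5 and 74.8 in the MPH Sham libraries. Each BDL library was far below each Sham library. The log2 change was -2.94 ± 0.22 (SE, n = 3 each; limma adjusted p = 0.0034), on 315 to 499 reads in BDL and 2512 to 3610 in Sham libraries. This call held under all 16 alternatives tried, with changes of -3.08 to -2.70. After ligation the mean Bdh1 level of hepatocytes (8.47 ± 1.85 FPKM) was near that of BECs BDL libraries (8.83 ± 5.39) in the deposited values. Those columns were not scaled to an equal sum: they added up to 510913 to 673328 in MPH BDL and 268854 to 298748 in BECs BDL. The Kupffer BDL libraries had 1.21, 2.23 and 19.2 FPKM, a mean of 7.54 that is 1.72 without Kupffer BDL 3. The other ketone gene, Acat1, the mitochondrial acetoacetyl-CoA thiolase, stood at 54.8, 49.3 and 127.6 FPKM in MPH BDL, against 102, 125 and 189 in MPH Sham, and was not called.

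Acaa1b (chromosome 9, 119148023 to 119157093, minus strand, GRCm38) stood at 88.96, 44.9 and 52.1 FPKM in MPH BDL, against 626, 684 and 816 in MPH Sham. All BDL libraries were again below all Sham libraries. The log2 change was -3.55 ± 0.32 (SE, n = 3 each; limma adjusted p = 0.0089), and it was not called without MPH Sham 2 or without MPH BDL 2, with adjusted p up to 0.0859. Its neighbour and near copy Acaa1a moved less, with 70.2, 80.9 and 85.2 FPKM in MPH BDL against 146, 74.1 and 98.5 in MPH Sham, a log2 change of -0.38 ± 0.30. The coding sequences, read as the longest open reading frames of the GENCODE M21 transcripts, are 1275 bases each, 96.5% identical, and share 38.1% of their 50-base stretches, so the counting may have mixed or dropped reads of the pair and both values are uncertain. The stretch of coding bases 229 to 288 (chromosome 9) is shown to compare the pair, which differ there at 6 of 60 bases, given in capitals, a larger share than over the whole coding sequence.
Acaa1b: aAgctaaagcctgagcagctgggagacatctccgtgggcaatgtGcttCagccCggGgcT
Acaa1a: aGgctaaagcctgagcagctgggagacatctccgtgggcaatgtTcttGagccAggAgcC

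The changes of the other 4 members of the peroxisomal spiral, Acaa1a among them, were all negative in hepatocytes, and none was called. Ehhadh stood at 281, 173.8 and 416 FPKM in MPH BDL, against 661, 1127 and 1160 in MPH Sham, with no overlap, and its log2 change of -1.80 ± 0.41 missed the threshold (adjusted p = 0.077). Crot, which makes carnitine esters of medium-chain products in peroxisomes, had a change of -1.12 ± 0.51, and Hsd17b4 of -0.47 ± 0.28. The summed level of the 5 peroxisomal members was 635, 449 and 835 FPKM in MPH BDL and 1745, 2142 and 2521 in MPH Sham libraries.

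The 8 members of the mitochondrial spiral had a median log2 change of -0.60, and 7 were negative. Acaa2 stood at 304.6, 319.7 and 482 FPKM in MPH BDL, against 768, 719.9 and 1170 in MPH Sham, with no overlap (log2 change -1.26 ± 0.33, adjusted p = 0.095). Hadh, which oxidises short-chain hydroxyacyl-CoA, had a change of -0.99 ± 0.22 and Acads, the short-chain dehydrogenase, -0.91 ± 0.25, also without overlap. Acadm, the medium-chain dehydrogenase, differed from these, with 100.9, 99.5 and 118 FPKM in MPH BDL against 95.6, 84.6 and 117 in MPH Sham. The groups of Acadm overlap and its change was 0.11 ± 0.23.

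The 4 helpers of the spiral had a median change of -1.20, close to the median of -1.12 for the 5 peroxisomal members. Decr2, the peroxisomal dienoyl-CoA reductase, had a change of -1.39 ± 0.29, Decr1, the mitochondrial one, -1.23 ± 0.37, and Eci1, a mitochondrial isomerase of double bonds, -1.17 ± 0.26, and in all of them the groups did not overlap. Eci2, a related isomerase, had a change of 0.29 ± 0.55. Etfb, the partner of Etfa, came nearest to the threshold of the uncalled members, with 25.7, 22.1 and 23.5 FPKM in MPH BDL against 73.2, 46.6 and 59.3 in MPH Sham (-1.27 ± 0.23, adjusted p = 0.051). Acsl1 stood at 29.6, 15.2 and 21.5 FPKM in MPH BDL, against 49.2, 71.2 and 163 in MPH Sham (-1.91 ± 0.47, adjusted p = 0.087). When the spread was estimated over all 18 libraries in 1 model, 11 members were called lower in MPH, these being Bdh1, Acaa1b, Acaa2, Acads, Acsl1, Cpt2, Decr1, Decr2, Eci1, Etfb and Hadh. In that model 17.5% of all genes were called in MPH.

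**Figure D2:**
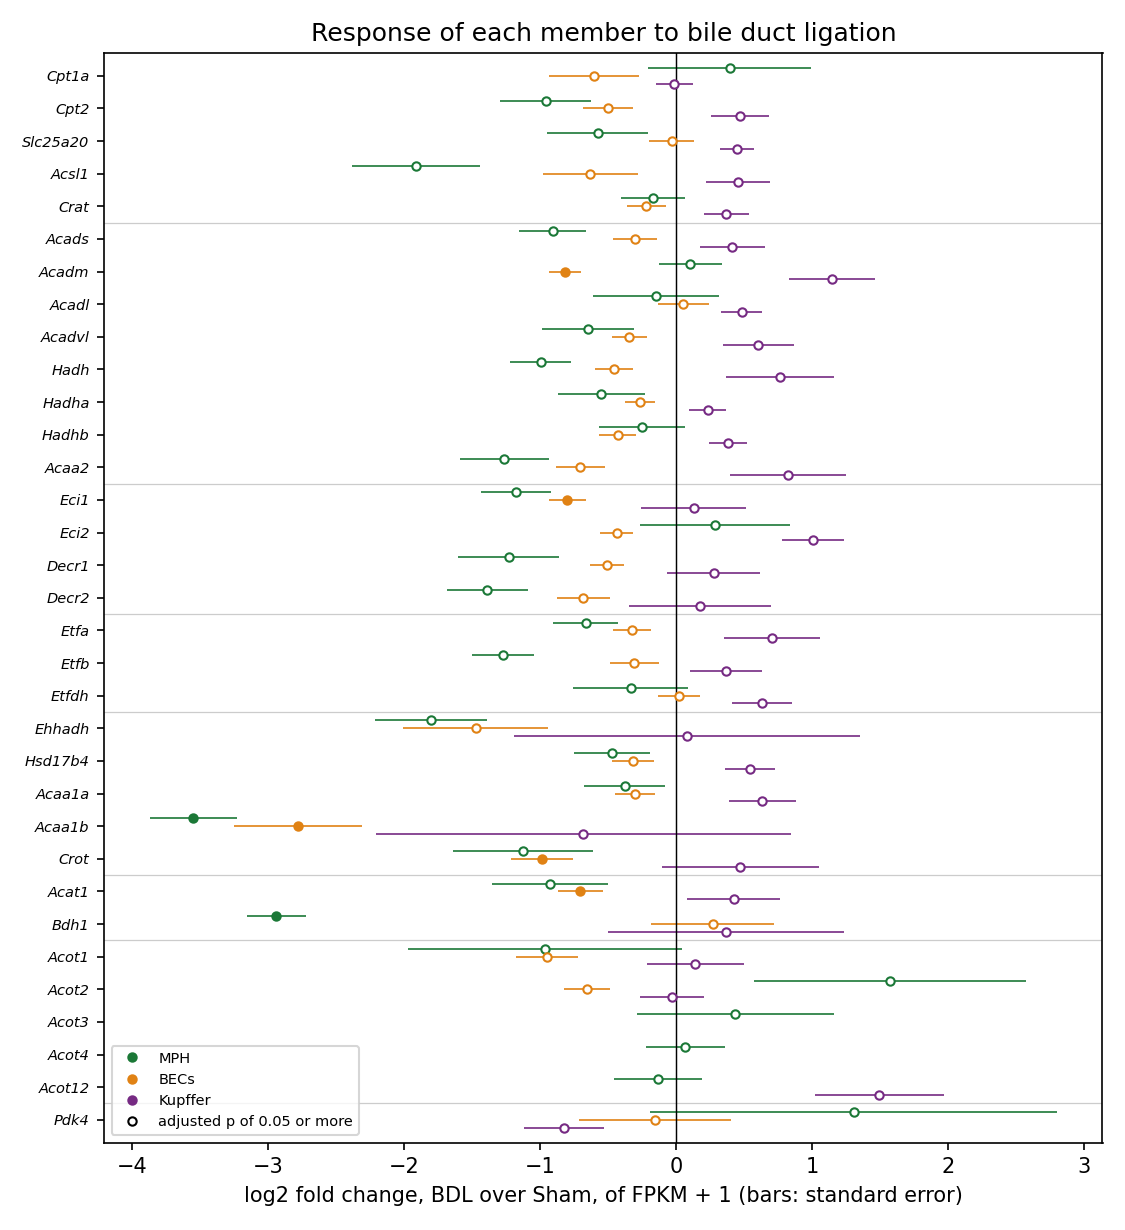
Log2 fold change of FPKM + 1, BDL over Sham, with its standard error, for each member in MPH (green), BECs (orange) and Kupffer-like cells (purple); filled points have an adjusted p under 0.05. Bdh1 is far left in MPH alone, Acaa1b is left in MPH and BECs, and the Kupffer points lie mostly right of 0 and are all open.

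The library MPH BDL 3 differed from the other MPH BDL libraries in many members. It was the highest of the 3 MPH BDL libraries for 27 of the 33 members, and for 11 members it was above every MPH Sham library. How often it was so over all genes was not counted. The column of MPH BDL 3 added up to 673328, against 510913 and 556881 in the other MPH BDL libraries. MPH Sham 3, with a sum of 834579, was the highest of its group for 23 members, and the part of scaling in these counts was not tested. Pdk4 had 4.13, 18.6 and 473 FPKM in the MPH BDL libraries, against 14.4, 17.4 and 10.1 in MPH Sham. Acot2 had 9.76, 9.88 and 151 against 11.0, 7.39 and 5.69, and Cpt1a, the entry enzyme of the carnitine shuttle, 49.6, 101.5 and 288 against 73.6, 85.3 and 101. In each of these a single BDL library was far above all others and the other two were close to or below the Sham range. Among other genes of the pathway, singled out after their values were seen, Cyp4a14, a fatty acid hydroxylase, stood at 16.8, 36.96 and 1909 FPKM in MPH BDL, against 16.8, 267 and 29.2 in MPH Sham. Acaa1b, at 52.1 FPKM, and Bdh1, at 8.65 FPKM, were not high in MPH BDL 3. Its hepatocyte marker sum, 109211 FPKM, was the highest of the BDL libraries and lay within the Sham range, and its neutrophil marker sum was 259.5 FPKM, against 107.2 and 110 in the other BDL libraries; their part in these values was not tested.

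For Acot1, the cytosolic thioesterase, the call depended on that library. It had 3.74, 3.99 and 70.1 FPKM in MPH BDL, against 29.6, 18.1 and 20.4 in MPH Sham, a log2 change of -0.96 ± 1.01 (adjusted p = 0.61). Without MPH BDL 3 the change was -2.25 (limma adjusted p = 0.0432), and 3 members were called lower, beside 0.283% of all genes called in either direction. Acot1 and Acot2 are 95.5% identical in their coding sequences, and 43.5% of the 50-base stretches of Acot1 also occur in Acot2, so reads may have been divided between them or dropped. Coding bases 5 to 64 of Acot1 and 128 to 187 of Acot2 (both chromosome 12) are shown to compare them, with differing bases in capitals.
Acot1: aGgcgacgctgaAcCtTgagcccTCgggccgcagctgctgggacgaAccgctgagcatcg
Acot2: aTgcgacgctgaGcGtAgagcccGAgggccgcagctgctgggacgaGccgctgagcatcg

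**Figure D3:**
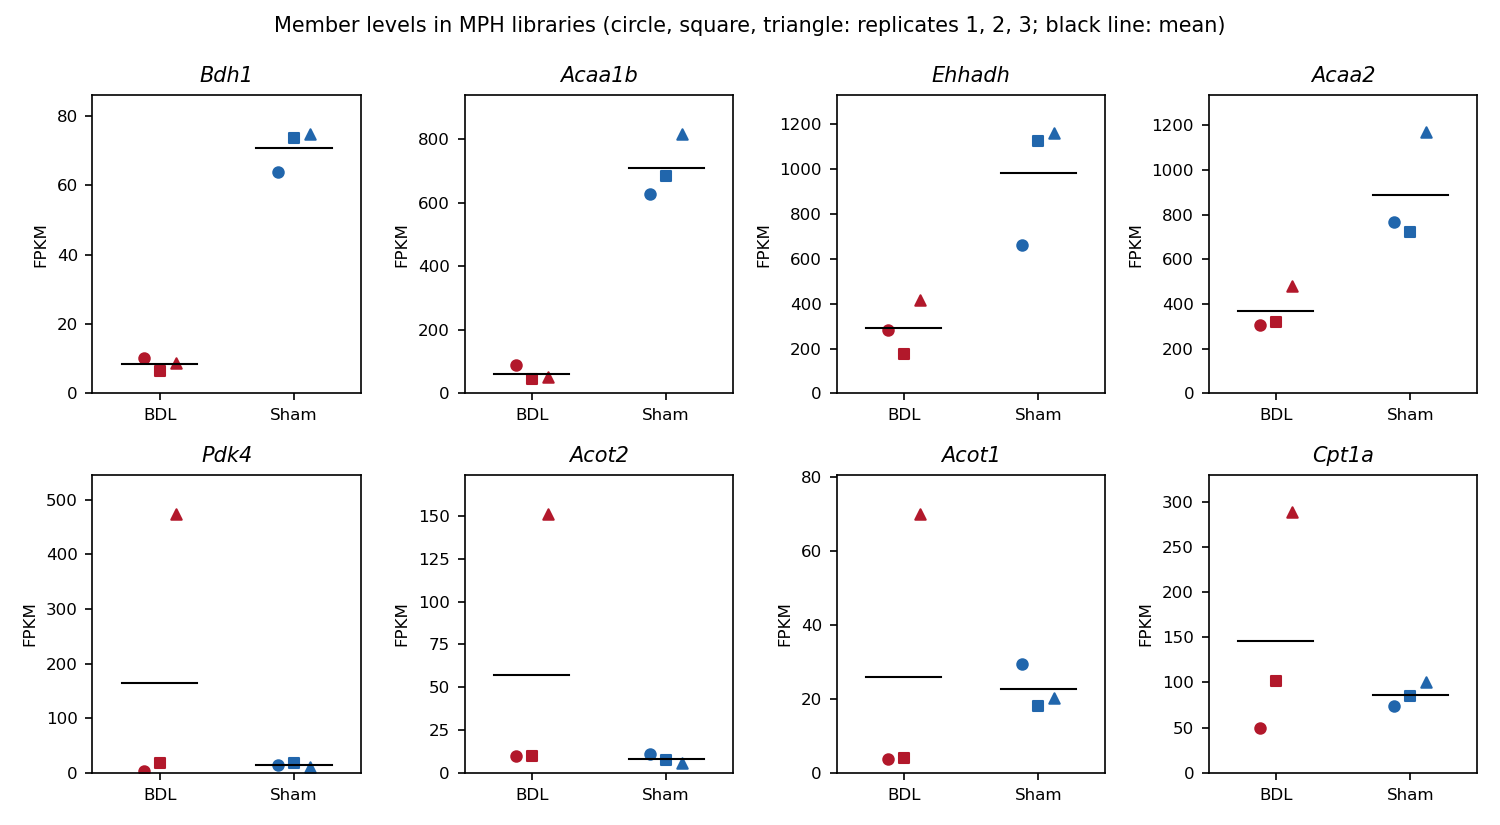
FPKM of 8 members in the MPH libraries, BDL left and Sham right, with a symbol per replicate and a line at the mean. In the top row the BDL libraries lie below the Sham libraries, and in the bottom row replicate 3 of BDL (473 for Pdk4, 151 for Acot2, 70.1 for Acot1, 288 for Cpt1a) lies far above the rest.

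In BECs, 5 of 30 members tested fell and none rose, while 4.70% of all 13573 genes were called lower. Acot3, Acot4 and Acot12 were too low to be tested there. The change was negative for 27 members, with a median of -0.45 beside -0.03 over all genes, and 16 members had an unadjusted p under 0.05, beside 26.0% of all genes. For 18 members every BDL library was below every Sham library, beside 18.8% of all genes.

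The 5 were Acaa1b, Crot, Acadm, Eci1 and Acat1. Acadm stood at 15.1, 13.7 and 15.7 FPKM in BECs BDL, against 28.6, 26.3 and 25.6 in BECs Sham. Replicates were tight and the groups well apart, with a log2 change of -0.82 ± 0.12 (SE, n = 3 each; limma adjusted p = 0.016). Eci1 stood at 19.3, 21.0 and 21.6 FPKM in BECs BDL, against 39.5, 31.9 and 38.8 in BECs Sham (-0.80 ± 0.14, limma adjusted p = 0.024). Acaa1b stood at 2.53, 1.70 and 2.73 FPKM in BECs BDL, against 40.0, 9.81 and 24.8 in BECs Sham (-2.78 ± 0.47, limma adjusted p = 0.026), and all BDL values were low. Crot (-0.98 ± 0.23) and Acat1 (-0.70 ± 0.17) were just inside the threshold, with an adjusted p of 0.05 when rounded, and each was called under only 2 of 16 alternatives. Acadm was called under 9 of the 16 (limma adjusted p up to 0.336), Acaa1b under 9 (up to 0.583) and Eci1 under 10 (up to 0.467).

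Hepatocyte transcripts moved with these values. All 15 hepatocyte markers had a negative log2 change in BECs, with a median of -2.07, and 4 of them fell. With their level as a covariate no gene of any kind was called in BECs, and the median of the members was -0.42. The marker sums of BECs BDL (234.9 to 745.9 FPKM) and BECs Sham libraries (1747 to 4176) do not overlap, so that fit cannot separate ligation from these markers. In BECs 5 of 6 neutrophil markers tested also rose and 7 of 9 endothelial markers fell. As a share of the hepatocyte marker sum, Acaa1b was at 0.339%, 0.302% and 1.16% in BECs BDL libraries, against 1.18%, 0.562% and 0.594% in BECs Sham libraries, which overlap. In MPH the same share was 0.16%, 0.0663% and 0.0477% in BDL libraries, against 1.22%, 0.87% and 0.652% in Sham libraries, which do not. The part of hepatocyte transcripts in the change of each member was not tested further. Leaving out any 1 of the 6 BECs libraries gave 0 to 3 called members, with 0 without BECs Sham 1 and 0 without BECs BDL 2. Without BECs BDL 1 only Acot1 was called, which is not among the 5.

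In Kupffer-like cells no member of 31 tested was called, while 3.88% of all 12748 genes were called in either direction. Acot3 and Acot4 were too low to be tested. By limma 10 members had an unadjusted p under 0.05, beside 24.1% of all genes, and the count was also 0 with limma voom on recovered reads. The change was positive for 27 members, with a median of 0.43 beside 0.03 over all genes; without Kupffer BDL 3 the median was 0.23, beside 0.04. For 12 members every BDL library was above every Sham library, beside 16.7% of all genes, and for Pdk4 every BDL library was below, with 10.6, 5.13 and 7.79 FPKM in Kupffer BDL against 19.3, 12.4 and 11.7 in Kupffer Sham. Scaled to a common sum, the median of all genes moved to -0.25 and that of the members to 0.16.

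Kupffer BDL 3 was the highest of its group for 29 of 33 members, while Kupffer Sham 1 was the highest of its group for 28. The same was not counted over all genes. The median log2 difference from the other 2 libraries of the group was 0.278 for Kupffer Sham 1 and 0.759 for Kupffer BDL 3. Ehhadh had 18.2, 7.19 and 244 FPKM in Kupffer BDL, against 46.8, 46.0 and 13.6 in Kupffer Sham, and Acaa1b had 7.66, 1.44 and 139 against 46.9, 30.6 and 7.03. For both, the other two BDL libraries were near or below the low end of Sham, so the group means (89.9 ± 133.7 FPKM for Ehhadh in BDL, 35.5 ± 19.0 in Sham) rest on that library. Without it the Kupffer BDL mean was 12.7 FPKM for Ehhadh and 4.55 for Acaa1b. Its Kupffer cell marker sum was 3246 FPKM, against 19227 and 13779 in the other BDL libraries, and its neutrophil marker sum was 2291, against 884 and 825.7. Its hepatocyte marker sum (3554) was close to that of Kupffer BDL 2 (3809), in which Acaa1b and Ehhadh were lowest. All 15 hepatocyte markers had a positive log2 change in Kupffer-like cells, with a median of 1.49 and none called. With their level as a covariate the median of the members was -0.08, and no gene of any kind was called. The marker sums of Kupffer BDL (1559 to 3809 FPKM) and Kupffer Sham libraries (671.6 to 1406) do not overlap, so that fit cannot separate ligation from these markers. In Kupffer-like cells 3 of 6 neutrophil markers tested rose and 5 of 9 endothelial markers fell, and the part of these other cells in the members' values was not tested.

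Without Kupffer BDL 3 the count of called members was 2, while 18.4% of all 12364 genes were then called. Acadm stood at 26.3, 21.8 and 46.8 FPKM in Kupffer BDL, against 15.7, 13.8 and 9.99 in Kupffer Sham, and all BDL libraries were above all Sham libraries. Its log2 change was 1.15 ± 0.32 (limma adjusted p = 0.097), and without Kupffer BDL 3 it was 0.84 (limma adjusted p = 0.0493). Eci2 stood at 16.7, 15.9 and 9.28 FPKM in Kupffer BDL, against 5.93, 6.34 and 6.48 in Kupffer Sham. Its change was 1.01 ± 0.23 (limma adjusted p = 0.065), and 1.26 without Kupffer BDL 3 (limma adjusted p = 0.00431). For Eci2, unlike Ehhadh, Kupffer BDL 3 was the lowest of its group.

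**Figure D4:**
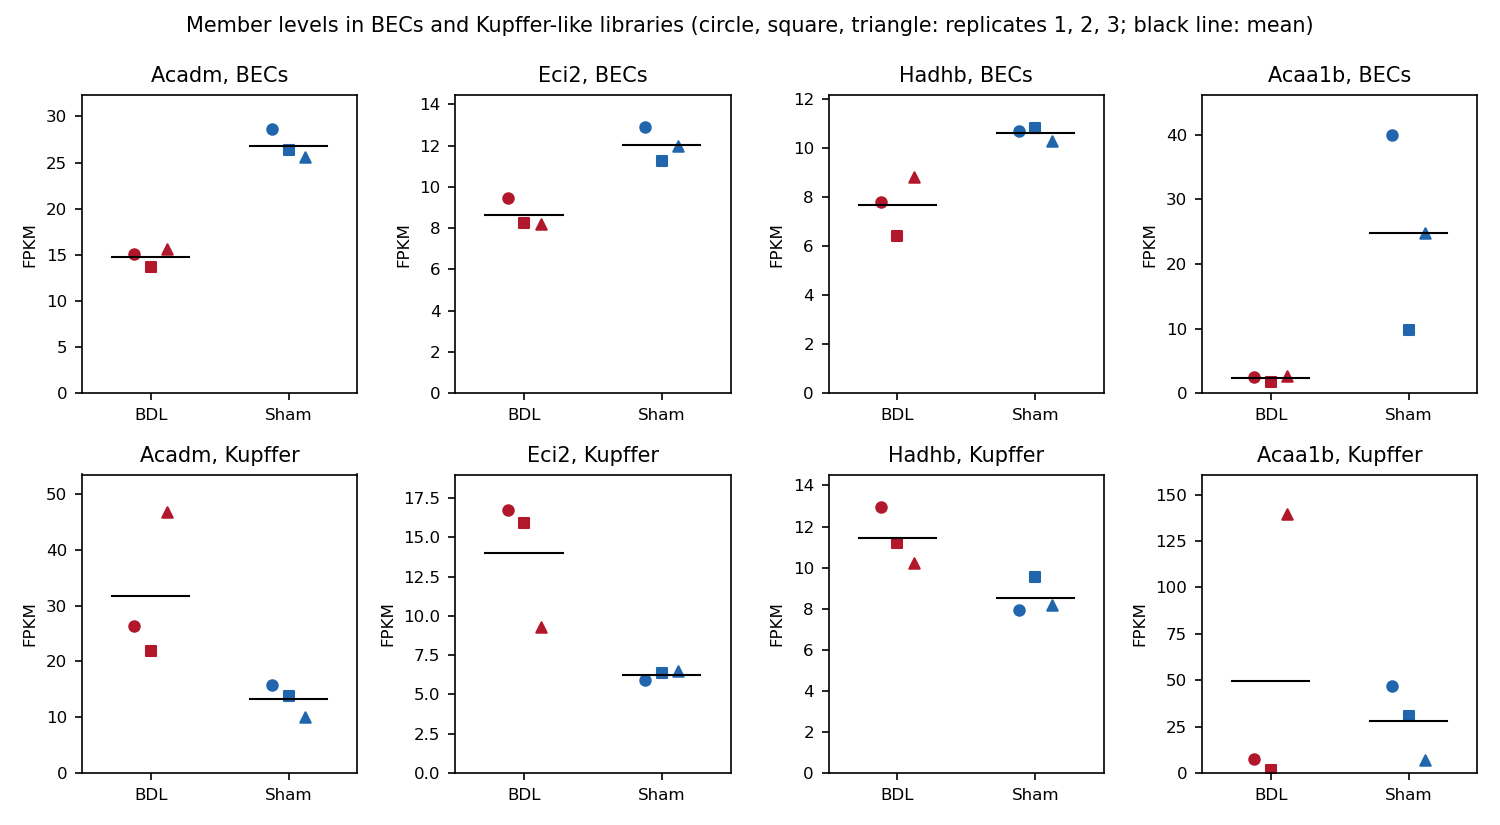
FPKM of 4 members in BECs (top) and Kupffer-like (bottom) libraries, BDL left and Sham right, with a symbol per replicate and a line at the mean. Acadm, Eci2 and Hadhb are lower in BDL than in Sham in BECs and higher in Kupffer-like cells, and Acaa1b in Kupffer BDL is spread between 1.44 and 139.

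**Figure D5:**
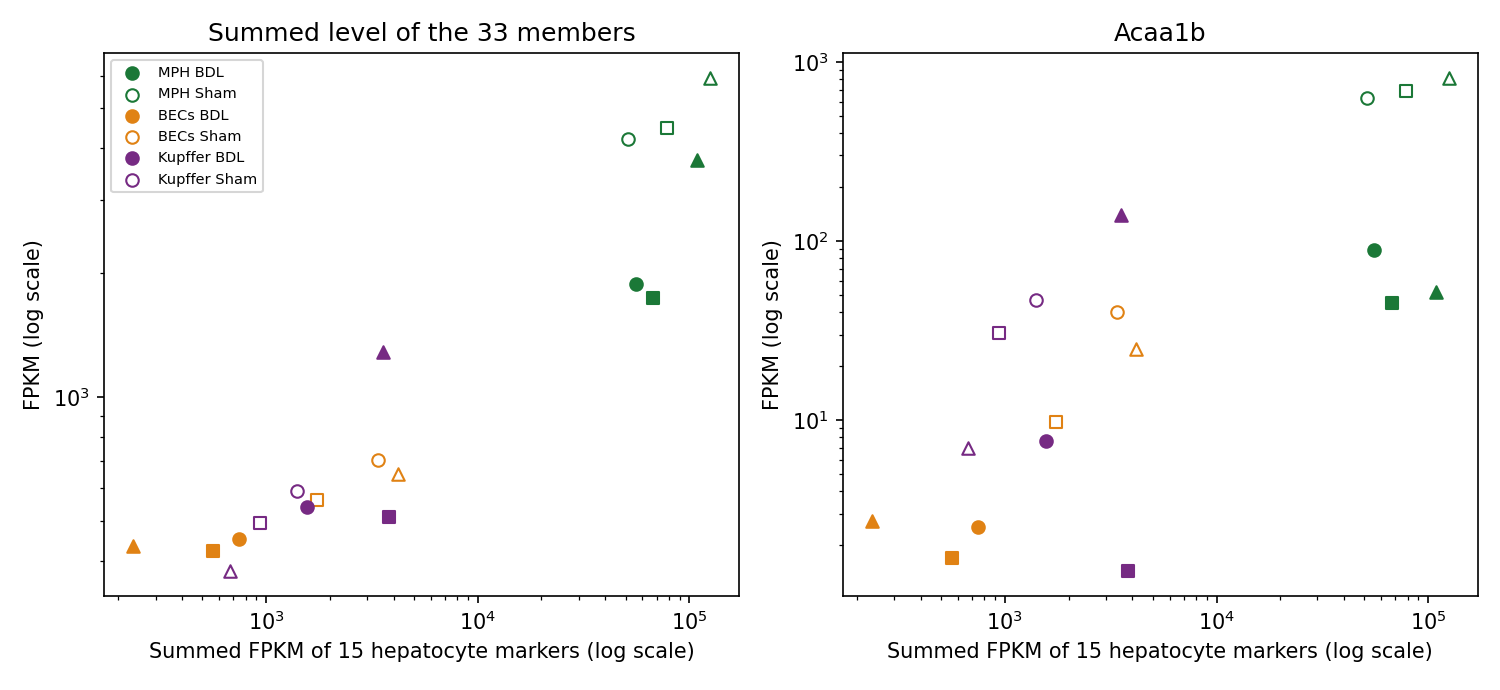
Summed FPKM of the 33 members (left) and FPKM of Acaa1b (right) against the summed FPKM of 15 hepatocyte markers in all 18 libraries, both axes on log scales, BDL filled and Sham open, with circle, square and triangle for replicates 1, 2 and 3. The MPH BDL libraries lie below MPH Sham libraries of like marker sum, and the Kupffer BDL libraries differ in Acaa1b at like marker sums (1.44 at 3809 and 139 at 3554).

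Differences of the response between cell types were tested directly. Comparisons that share a cell type share its libraries. The response in MPH minus that in BECs was called lower for 1 of 33 members, Bdh1, while 0.717% of all 14780 genes were called lower. Its difference was -3.21 ± 0.53 (SE, 12 libraries; limma adjusted p = 0.019), between -2.94 in MPH and 0.27 in BECs. No member was called without MPH BDL 2, BECs Sham 1 or BECs Sham 2. Without MPH Sham 3, Acadm was called beside Bdh1, in the opposite direction (1.05, limma adjusted p = 0.0473). Bdh1 in BECs stood at 5.77, 15.1 and 5.68 FPKM in BDL, against 5.87, 3.98 and 11.1 in Sham, with overlap.

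The response in MPH minus that in Kupffer-like cells was called for no member of 33, beside 0.404% of all 14101 genes. Its median over the members was -1.25, beside -0.03 over all genes, and 18 members had an unadjusted p under 0.05 by limma, beside 19.0% of all genes. With the number in the sample titles as a block, which pairs 3 MPH with 3 Kupffer libraries, 5 members were called, all lower in MPH (Acaa2, Acads, Acsl1, Cpt2 and Etfb), and 3.33% of all genes were called. Acsl1 then differed by -2.46 (limma adjusted p = 0.0307) and Etfb by -1.57 (limma adjusted p = 0.0296). Without Kupffer BDL 3, and with no block, 3 were called (Bdh1, Etfb and Hadh), beside 2.74% of all genes. Scaled to a common sum, the median of the members was -0.78, beside 0.37 over all genes.

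The response in BECs minus that in Kupffer-like cells was called lower for 3 of 31 members, while 2.15% of all 14874 genes were called lower. These were Acadm (-1.97 ± 0.35, limma adjusted p = 0.024), Eci2 (-1.44 ± 0.26, limma adjusted p = 0.024) and Hadhb (-0.81 ± 0.19, limma adjusted p = 0.046). Hadhb, a subunit of the trifunctional protein of long-chain oxidation, had 7.79, 6.42 and 8.83 FPKM in BECs BDL, against 10.7, 10.8 and 10.3 in BECs Sham, and 12.96, 11.2 and 10.2 in Kupffer BDL, against 7.91, 9.53 and 8.18 in Kupffer Sham. In both cell types its groups are apart in the deposited values, in opposite directions. The columns of Kupffer BDL 1 and Kupffer BDL 2 added up to 365088 and 399850, against 267916 to 290042 in Kupffer Sham. Scaled to a common sum, Eci2 was called, and Acadm and Hadhb were not. No member was called without BECs BDL 2, BECs Sham 1, Kupffer Sham 2 or Kupffer Sham 3. Without Kupffer BDL 3 there were 5, beside 12.1% of all genes. The hepatocyte markers moved in the same directions, with a median difference of -3.61 and 9 of 15 called lower; their part in the members' differences was not tested.

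Of 73 other genes of the pathway, 68 were tested in MPH, where 3 fell and none rose, 61 in BECs, where 12 fell and 1 rose, and 59 in Kupffer-like cells, where 1 rose and none fell. Over all genes 0.860% were called lower in MPH, 4.70% lower and 2.96% higher in BECs, and 1.47% higher in Kupffer-like cells. Fabp1, the liver fatty acid carrier, stood at 33.1, 52.2 and 435 FPKM in MPH BDL, against 4963, 2841 and 6181 in MPH Sham (log2 change -5.58 ± 0.93, limma adjusted p = 0.047). Nudt7, a peroxisomal hydrolase of coenzyme A, stood at 10.9, 7.84 and 8.24 FPKM in MPH BDL, against 102, 57.8 and 206.9 in MPH Sham (-3.44 ± 0.45, limma adjusted p = 0.028). Bdh2, a cytosolic relative of Bdh1, also fell in MPH (-1.71 ± 0.29, limma adjusted p = 0.048).

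In BECs the called genes of smallest adjusted p were Fabp1 (-5.76), Slc16a6, which exports ketone bodies in zebrafish liver (1.38), Ech1, an isomerase of dienoyl-CoA (-0.77), and Rxra, the partner receptor of PPARA (-0.82). Fabp1 stood at 1.58, 1.29 and 0 FPKM in BECs BDL, against 157.9, 57.3 and 99.5 in BECs Sham. All 15 hepatocyte markers also had a negative change in BECs (median -2.07), and the part of hepatocyte transcripts in the genes called there was not tested. In Kupffer-like cells Echs1, the short-chain enoyl-CoA hydratase, rose by 1.11 ± 0.19 (limma adjusted p = 0.041). Ppara itself stood at 7.04, 9.78 and 11.5 FPKM in MPH BDL, against 13.9, 19.0 and 30.6 in MPH Sham, with no overlap, and its change of -1.04 ± 0.32 was not called (adjusted p = 0.13). Ppargc1a, a coactivator of the programme, had a change of 0.13 ± 0.28 in MPH and fell in BECs (-0.86 ± 0.16, limma adjusted p = 0.030). Fgf21, a fasting hormone under PPARA, was likewise highest in MPH BDL 3, with 3.69, 2.71 and 49.8 FPKM in MPH BDL, against 2.13, 1.17 and 2.68 in MPH Sham.

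PPARA and its partner bind a direct repeat of AGGTCA spaced by 1 base. Promoter windows of 300 bases (250 before to 50 after the start; RefSeq, GRCm38.p6) were found for 28 members and searched on both strands for AGGTCANAGGTCA, allowing 2 mismatches in the 12 fixed letters. The motif was matched in 4 of them (14.3%: Acot12, Acot4, Etfa and Slc25a20), and in 4.4% of all 27025 genes with a promoter window. The repeated unit AGGTCA alone, which the full motif contains, was in 21.4% and 18.1%. None of the 4 was called in MPH or, where tested, in BECs, and Bdh1 and Acaa1b were not among them. The matches in Acot12, Acot4 and Etfa, all on the strand opposite to the motif as written, are shown on the gene's strand with the matched bases in capitals, to let the letters be compared: Acot12 at chr13:91741401-91741433, Acot4 at chr12:84038356-84038388 and Etfa at chr9:55512298-55512330 (minus strand).
Acot12: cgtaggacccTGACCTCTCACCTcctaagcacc
Acot4: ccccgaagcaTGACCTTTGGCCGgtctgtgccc
Etfa: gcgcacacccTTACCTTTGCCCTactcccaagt
A match describes these letters and shows no binding.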

How the data were processed

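Per the labels' protocols, RNA came from a TRIzol extraction and was prepared for sequencing with the VAHTS Universal V6 kit. CASAVA 1.8, fastp, HISAT2 2.0.5, featureCounts 1.5.0-p3, DESeq2 1.20.0 and the build GRCm38 (mm10) are named in the submitters' processing notes; the sources used here do not give annotation release or strandedness. The authors deposited FPKM values in 18 columns, 1 per library, and their depth was recovered as the size at which FPKM times the GENCODE M21 exon length gives whole reads (97.36% to 98.37% of values under 200 reads within 0.02). The ratio of that size to reads was 0.52 to 0.74 in MPH and 0.93 to 1.22 elsewhere. Of the gene symbols, 105 repeat an earlier one and were kept as separate genes.

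Genes that reached an FPKM of 1 in 3 or more libraries of a comparison were tested on log2(FPKM + 1) with limma 3.58.1 in R 4.3.3 (eBayes with trend and robust, 2-sided): BDL against Sham over the 6 libraries of a cell type, differences of response over 12, and cell types over the 9 Sham libraries. Scripts ran in Python 3.11.15 and were tested on simulated data. The members and lists were chosen with earlier results of these data known. Other pathway genes were named when called, up to 4 per comparison by adjusted p, with Ppara, Ppargc1a and Fgf21 added; the results of some genes are not reported here. Other settings were a pseudocount of 0.1, no filter, FPKM of at least 5, other scalings, plain eBayes, 1 model over 18 libraries, marker covariates, a title-number block (statmod 1.5.0, duplicateCorrelation) and each library left out in turn; scaling to, and voom on, recovered reads were chosen after seeing the data. The title numbers shared by MPH and Kupffer libraries come from the labels, which do not say that they mark the same mouse. Over 12430 genes, the deviations of the 3 pairs from their group means correlated at 0.236, 0.346 and 0.319. Libraries with unlike numbers were not compared in this way, so these values do not settle whether the libraries are paired. The main fits used no block, and the block was run as another setting.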

Additional observations from a re-analysis of the deposited data

Results flagged for a closer look

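The response to ligation differed between cell types, by a direct test of the difference, for 4 members. Bdh1 had a log2 response lower by 3.21 in MPH than in BECs (difference -3.21, limma adjusted p = 0.019), with BDL lower than Sham in all libraries of MPH and overlapping groups in BECs; this held under 16 of 21 alternatives. In BECs minus Kupffer-like cells the difference was -1.97 for Acadm, -1.44 for Eci2 and -0.81 for Hadhb. For these 3 genes, in the deposited values, every BDL library was below every Sham library in BECs and above every Sham library in Kupffer-like cells. Scaled to a common sum, Eci2 was called, and Acadm and Hadhb were not. The call held under 14 of 21 alternatives for Acadm, 15 of 21 for Eci2 and 4 of 21 for Hadhb.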

How the results depend on the processing

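The count of members higher in Sham MPH than in both other cell types (30) was within 1.5 times under all 19 alternatives, the replicate block included (30). Of its single genes, the direction turned against BECs for Cpt1a (-0.086), Eci2 (-0.18) and Acot1 (-0.48) and against Kupffer-like cells for Crat (-0.003) when scaled to a common sum, and for Acot1 against BECs (-0.10) when scaled to recovered reads. For BDL against Sham, leaving out 1 library gave 1 to 3 called members in MPH, 0 to 3 in BECs and 0 to 2 in Kupffer-like cells. For differences of response it gave 0 to 2 (MPH minus BECs), 0 to 3 (MPH minus Kupffer) and 0 to 5 (BECs minus Kupffer). With all 18 libraries in 1 model the counts were 11 in MPH, 0 in BECs, 2 in Kupffer-like cells, 0 for MPH minus BECs and 8 for MPH minus Kupffer. With no filter, which tests many more genes, the counts of called members were 0 in BECs and 0 for MPH minus BECs and BECs minus Kupffer. In BECs the count was 3 with a pseudocount of 0.1, a common sum, quantile normalization, plain eBayes or recovered reads. With the hepatocyte marker covariate it was 0, as it was over all genes. With the Kupffer marker covariate MPH had 5, while 224 of all 12323 genes were called. A common sum or quantile normalization gave 2 for MPH minus BECs, with Bdh1 lower and Acadm higher (by 1.06 and 1.28). A common sum or recovered reads gave 1 for BECs minus Kupffer. The replicate block gave 5 for MPH minus Kupffer; it was run for this count and the Sham cell type count only, since only MPH and Kupffer libraries share title numbers. For causes other than those named, the cause was not tested. Among uncalled members the sign changed in 19 of 495 values in MPH, 16 of 400 in BECs and 39 of 493 in Kupffer-like cells. With 3 libraries a group, small changes are not detectable, and Acot3 in BECs rested on 0 to 53 reads per library.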
